A study of Sus scrofa with 22 samples.

Results

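STAT2, IRF9, GBP1 and GBP2 are interferon-related genes, and their mRNA levels were followed in blood mononuclear cells of mini pigs over 2 times, 3 diets and both sexes. The members are 4 of the 6765 genes on the array, measured by all probe sets that the array's annotation gives to exactly 1 of these symbols. This rule found 6 of 24123 probe sets, 1 each for STAT2 (Ssc_14520_1_S1_at, with _ in place of each point in these names), IRF9 (Ssc_1625_1_S1_at) and GBP2 (Ssc_883_1_S1_a_at) and 3 for GBP1. The GBP1 probe sets Ssc_29054_1_A1_at, Ssc_29054_2_S1_at and Ssc_29054_3_S1_at are called GBP1-a, GBP1-b and GBP1-c here. In the pig gene table of assembly Sscrofa11.1, GBP1 and GBP2 are neighbours.

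Type I interferon signals through a receptor whose kinases phosphorylate STAT2. In human and mouse cells STAT2 and IRF9, the DNA-binding subunit, belong to a transcription factor complex that switches on antiviral genes. Guanylate-binding proteins such as GBP1 and GBP2 are large GTPases, strongly induced by interferon-gamma in many cell types, that act against microbes inside cells.

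The study asked whether resveratrol, a plant polyphenol, changes gene expression in mononuclear cells of pigs kept on a fatty diet. At 9 months there were 4 arrays (2 females, 2 males) from each of 3 groups. The high-fat plus resveratrol group (females 21 and 22, males 4 and 5) ate chow with 20% beef tallow and received 8 mg of resveratrol per kg of body weight daily. The high-fat group (females 27 and 30, males 23 and 26) ate the chow with 20% tallow alone, and the control group (females 18 and 8, males 16 and 25) ate chow with 5% tallow. The start of the experiment (time 0) was sampled in 5 females (6, 8, 10, 17 and 20) and 5 males (11, 12, 15, 24 and 25) of the control group. Pigs 8 and 25 were measured at both times, so the 22 arrays came from 20 animals, and the labels do not give their ages at time 0. All were Mini Pigs, and mononuclear cells were taken from blood on a density gradient.

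Values below are log2 RMA intensities (a background-corrected, quantile-normalised summary of the probes of a probe set). A difference of 1 is a 2-fold change. All 6 member probe sets passed the intensity filter (log2 above 5 in at least 2 of 22 arrays) on every array. A member was called changed at a Benjamini-Hochberg adjusted p under 0.05 over all 17240 probe sets tested with limma. Markers of the labelled cell type were bright: CD3E, a T cell receptor subunit, lay at 11.25 to 12.28 and CD14, a monocyte receptor, at 7.83 to 9.90. Spike-in RNA added before labelling separated the arrays of each time into a brighter and a dimmer set, which the labels do not explain. At 9 months the brighter set (mean log2 9.93 to 10.6) held both high-fat females, high-fat male 26, resveratrol female 21 and control male 25, and the dimmer set (8.39 to 9.02) the other 7 arrays. At time 0 the brighter set (9.12 to 9.15) held females 6 and 10 and the dimmer set (7.58 to 7.85) the other 8 arrays. These are measurements of blood samples, in which fewer cells of a type and less RNA per cell cannot be told apart.

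**Figure D1:**
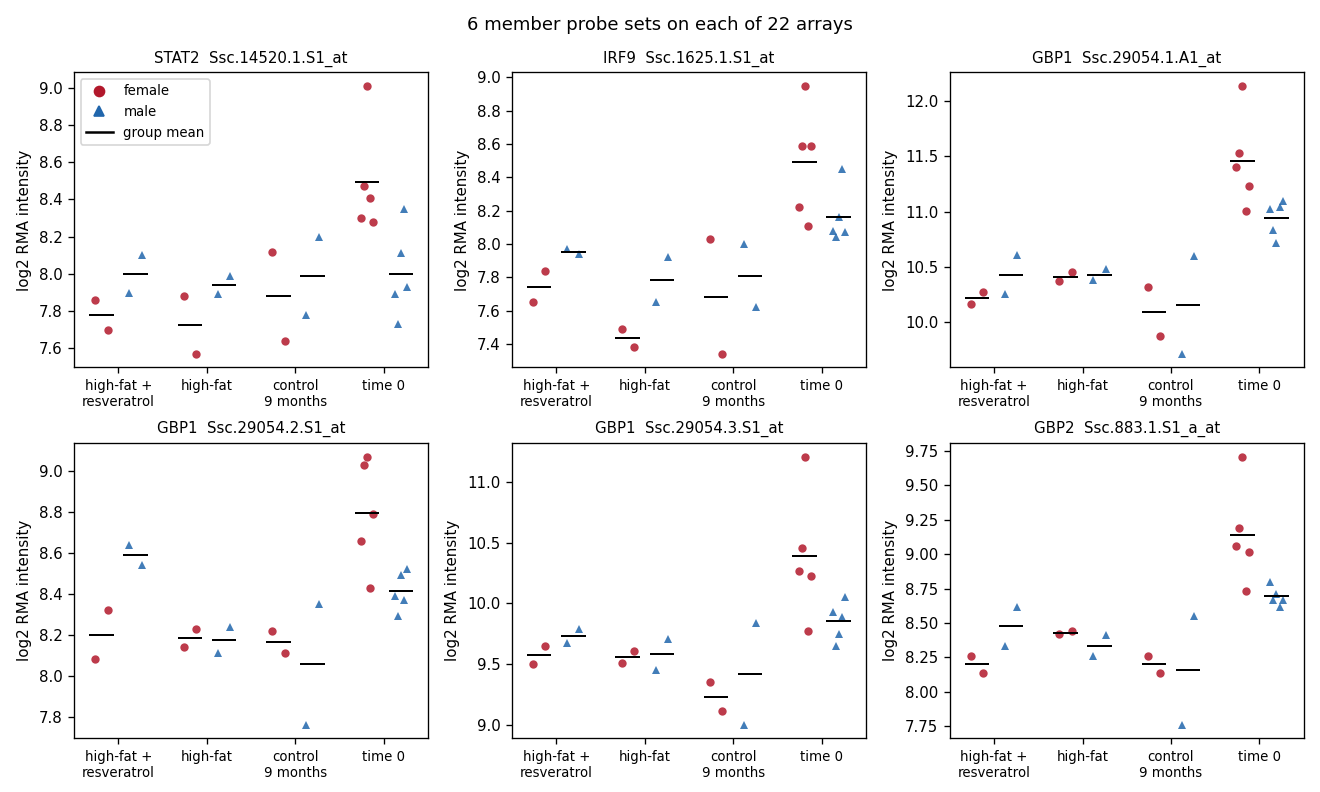
Log2 RMA intensity (y axis) of the 6 member probe sets on each of 22 arrays, by condition (x axis). Circles are females, triangles are males and bars are the means of each sex within a condition. For GBP1-a the 12 arrays of 9 months lie between 9.71 and 10.61, all below the 10 arrays of time 0, which lie between 10.72 and 12.14.

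On the control diet, IRF9, GBP1 and GBP2 were lower at 9 months than at time 0, and STAT2 did not pass the test. The labels give no tallow percentage for time 0. Age, 9 months on the control chow and any difference in the handling of the arrays of each time cannot be told apart in this comparison. GBP1-a fell most, to 0.475 times its time 0 level, followed by GBP1-c (0.576 times), GBP2 (0.599 times), IRF9 (0.669 times) and GBP1-b (0.710 times). Thus 5 of 6 member probe sets were called lower and 0 higher. This comparison called 35% of all probe sets, 19.1% as lower and 15.8% as higher, so a call was common. The median of the 6 member differences was -0.66, against a median of -0.01 over all probe sets.

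GBP1-a stood at 10.32 (female 18), 9.87 (female 8), 9.71 (male 16) and 10.60 (male 25) at 9 months, against a lowest value of 10.72, a median of 11.07 and a highest of 12.14 at time 0. The groups did not overlap. The difference was -1.07 (SE 0.19, adjusted p = 0.000202), with means of 10.13 ± 0.41 (SD, n = 4) at 9 months and 11.20 ± 0.41 (SD, n = 10) at time 0.

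GBP2 had 8.26 and 8.14 in the females and 7.76 and 8.55 in the males at 9 months, against a lowest value of 8.62, a median of 8.76 and a highest of 9.71 at time 0. Its control arrays of 9 months also all lay below those of time 0, with male 25 closest to them. The difference was -0.74 (SE 0.16, adjusted p = 0.00114). The other 2 GBP1 probe sets gave -0.49 (GBP1-b, SE 0.14, adjusted p = 0.00828) and -0.80 (GBP1-c, SE 0.20, adjusted p = 0.00415). In both, male 25 at 9 months (8.35 and 9.84) lay within the range of time 0 (8.29 to 9.07 and 9.65 to 11.21), so these groups overlapped.

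IRF9 had 8.03 and 7.34 in females 18 and 8 and 8.00 and 7.62 in males 16 and 25 at 9 months, against a lowest value of 8.04, a median of 8.19 and a highest of 8.95 at time 0. The groups did not overlap, but female 18 came within 0.01 of the lowest time 0 array. The difference was -0.58 (SE 0.16, adjusted p = 0.00774). STAT2 had 8.12, 7.64, 7.78 and 8.20 in the same 4 arrays, against a lowest value of 7.73, a median of 8.29 and a highest of 9.01 at time 0. Its groups overlapped broadly, and its difference of -0.31 (95% interval -0.65 to 0.03) did not pass (adjusted p = 0.149).

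IRF9, GBP1-a and GBP2 were thus the 3 of 6 member probe sets whose control arrays of 9 months all lay below all those of time 0, as did 8.64% of all probe sets. With the other diets included, all 12 arrays of 9 months lay below all 10 of time 0 for IRF9 (highest 8.03 against lowest 8.04) and GBP1-a (highest 10.61 against lowest 10.72). This held for 3.72% of all probe sets. For GBP2, the resveratrol male 5 (8.62) reached the lowest array of time 0 (8.62).

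The 5 calls held in all 10 other processing settings tried. Leaving out 1 array at a time ended 2 of them. Without control female 8 at 9 months the IRF9 difference was -0.43 (adjusted p = 0.0588), and without control male 16 at 9 months that of GBP1-b was -0.39 (adjusted p = 0.0520).

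The 2 pigs measured at both times differed from each other. In female 8, all 6 probe sets were lower at 9 months, by -1.66 for GBP1-a, -1.06 for GBP2, -1.25 for IRF9 and -0.83 for STAT2. In male 25 the differences were -0.50 for GBP1-a, -0.11 for GBP2, -0.45 for IRF9 and 0.28 for STAT2. The mean of a list of 7 platelet genes was 6.33 on the 9-month array of female 8, against 8.15 to 9.86 on the other arrays. Spike-in means at 9 months and time 0 were 9.02 and 7.64 in female 8, and 10.39 and 7.59 in male 25. The part of these measures in the pairs was not tested. The control arrays of 9 months are 2 of each sex, so pigs 8 and 25 also enter the means by sex. In these means the change with time was larger in the females than in the males in each of the 6 probe sets. It was -0.61 in females and -0.01 in males for STAT2, -0.81 and -0.35 for IRF9, and -1.37 and -0.78 for GBP1-a. For GBP1-a, the other female (18) stood at 10.32 against a time 0 female mean of 11.46. The other male (16) stood at 9.71 against a time 0 male mean of 10.94. The difference between the sexes in the change with time was tested over the 3 diets together and is given further on.

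Other measures moved with time. Spike-in means were 8.39 to 10.39 in the control arrays of 9 months and 7.58 to 9.15 at time 0. Between arrays of similar spike-in level, the control females of 9 months (8.76 and 9.02) and females 6 and 10 of time 0, the differences were -1.675 for GBP1-a, -1.185 for GBP2, -0.90 for IRF9 and -0.775 for STAT2 (2 arrays against 2). They were -0.70 for GBP1-b and -1.51 for GBP1-c. These arrays are all of females, in which the mean change with time was the larger. They include the 9-month array of female 8, so the part of the spike-in level cannot be told from these differences. Female 10 was the highest array of time 0 in all 6 probe sets. On the control diet, 19.1% of all probe sets were called lower at 9 months and 15.8% higher, which is the background for the marker counts here. Of the T cell markers, 7 of 13 were lower at 9 months and 0 higher. Their list mean was 9.77 to 9.96 in the control arrays of 9 months and 10.1 to 10.5 at time 0. Of 3 B cell markers, 2 were lower and 1 higher. Of the monocyte and dendritic cell markers, 3 of 11 were higher and 0 lower, with list means of 9.90 to 10.3 at 9 months and 9.45 to 10.1 at time 0. NK and cytotoxic markers were lower in 3 of 6 cases (list mean 9.60 to 10.0 against 9.96 to 10.4), and erythroid markers in 4 of 4 (7.93 to 9.55 against 9.10 to 11.0). The 3' minus 5' signal of actin, a measure of RNA degradation, was 1.05 to 2.52 in the control arrays of 9 months and 0.79 to 2.45 at time 0. The part of these measures in the members' changes was not tested.

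**Figure D2:**
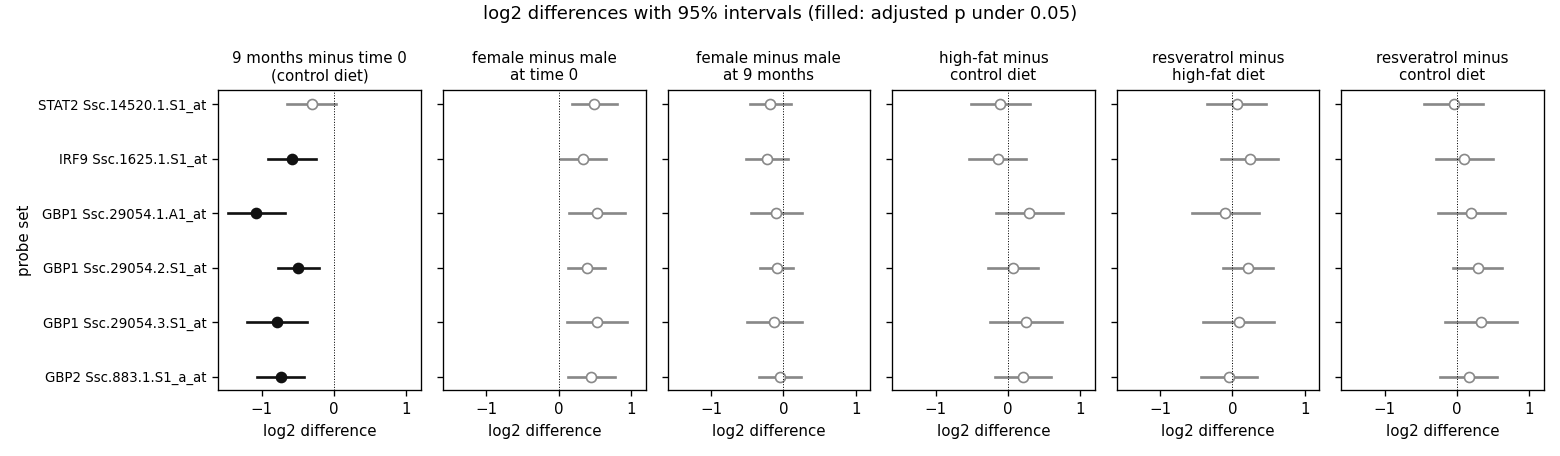
Log2 differences (x axis) of the 6 member probe sets (y axis) in 6 comparisons, with 95% intervals from the limma fit. Filled points passed the adjusted p threshold. All 5 filled points belong to the comparison of 9 months with time 0 on the control diet, where STAT2 alone (-0.31) is open.

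The wider interferon pathway was described with lists of genes other than the 4 members. Among 22 other interferon signalling genes, 6 were lower and 3 higher at 9 months on the control diet (median -0.13), when 19.1% of all probe sets were lower and 15.8% higher, so these counts lay near the background. The lower ones included the transcription factors IRF3 (-0.58) and IRF2 (-0.52), the cytokine IFNG (-0.52), IFI35 (-0.47) and the kinase JAK1 (-0.27), and the remaining one was STAT3 (-0.34). The higher ones were IRF8 (0.77), a transcription factor of monocytes, dendritic cells and B cells, the interferon-gamma receptor chain IFNGR1 (0.60) and IL10RB (0.35), a receptor chain shared by interleukin 10 and lambda interferons.

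Among 16 interferon-gamma-type targets, 6 were lower and 2 higher (median -0.28). Each of the 6 has a known role in antigen processing: the immunoproteasome subunits PSMB10 (-0.87) and PSMB8 (-0.87), the proteasome activators PSME2 (-0.51) and PSME1 (-0.35), the peptide transporter TAP1 (-0.36) and its partner TAPBP (-0.43). NAMPT (0.87), an enzyme of NAD synthesis, and the death ligand TNFSF10 (0.79) were the higher ones. Among 19 antiviral effectors, 3 were lower and 0 higher (median -0.45), a count of lower genes near the 19.1% of all probe sets: the double-stranded RNA-dependent kinase EIF2AK2 (-0.89), SP110 (-0.63) and PLAC8 (-0.45). Of the atlastins, GTPases related to the guanylate-binding proteins, ATL3 was lower (-0.85) and ATL2 did not pass.

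At time 0, before the diets, all 6 member probe sets had a positive difference between females and males, and none passed the adjusted threshold. GBP1-a was 11.40, 11.53, 12.14, 11.01 and 11.23 in females 6, 8, 10, 17 and 20, against 11.02, 10.83, 10.72, 11.04 and 11.10 in males 11, 12, 15, 24 and 25. Female 17 lay among the males and the other 4 females above all males. The difference was 0.52 (SE 0.18, adjusted p = 0.165).

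GBP2 was 9.06, 9.19, 9.71, 8.73 and 9.02 in the same 5 females, against 8.80, 8.67, 8.71, 8.62 and 8.67 in the males, a difference of 0.45 (SE 0.15, adjusted p = 0.144). Here again only female 17 fell within the range of the males. STAT2 was 8.30, 8.47, 9.01, 8.41 and 8.28 in the females, against 7.89, 7.73, 8.11, 8.35 and 7.93 in the males, a difference of 0.49 (SE 0.15, adjusted p = 0.109). Male 24 was the male that reached the females. IRF9 was 8.22, 8.59, 8.95, 8.11 and 8.59 in the females, against 8.08, 8.04, 8.16, 8.45 and 8.07 in the males, a difference of 0.33 (SE 0.15, adjusted p = 0.286), with male 24 above 2 of the females.

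GBP1-b and GBP1-c gave 0.39 (adjusted p = 0.118) and 0.53 (adjusted p = 0.186). All 6 unadjusted p values were under 0.05, as were those of 16.4% of all probe sets. The adjusted threshold was passed by 1.07% of all probe sets and by 0 of the 6. The 6 probe sets were measured on the same arrays, and 3 of them belong to 1 gene. Female 10, the highest female in all 6, weighed on these values: without it the differences lay between 0.22 (IRF9) and 0.36 (STAT2). Without female 17, GBP1-b passed (0.48, adjusted p = 0.0399).

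At 9 months the same contrast over the 3 diets gave small negative differences for all 6 member probe sets, between -0.23 (IRF9) and -0.05 (GBP2). None passed (adjusted p between 0.369 and 0.894), while 6.01% of all probe sets did. IRF9 had a lowest value of 7.34, a median of 7.57 and a highest of 8.03 in the 6 females, against 7.62, 7.93 and 8.00 in the 6 males. STAT2 had a lowest value of 7.57, a median of 7.78 and a highest of 8.12 in the females, against 7.78, 7.95 and 8.20 in the males. The sexes overlapped for every member. For the guanylate-binding proteins the sign turned when 1 array was left out: without control male 25, GBP1-a gave 0.050, GBP1-b 0.0075, GBP1-c 0.013 and GBP2 0.086, and without resveratrol male 5 GBP2 gave 0.0011.

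The change in the sex difference between the times was tested directly. The difference at time 0 minus that at 9 months was 0.67 for STAT2 (SE 0.20, adjusted p = 0.0490), just under the threshold. With adjusted p in parentheses, it was 0.56 for IRF9 (0.109), 0.62 for GBP1-a (0.139), 0.48 for GBP1-b (0.0845), 0.66 for GBP1-c (0.142) and 0.50 for GBP2 (0.148). So 1 of 6 member probe sets was called, against 7.34% of all probe sets (3.89% in this direction). The STAT2 call was kept in 6 of 9 other processing settings. It was lost with no filter (adjusted p = 0.0596), with pig as a block (adjusted p = 0.0501) and with the spike-in sets as a block (0.60, adjusted p = 0.122).

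Of 22 fits that each left out 1 array, 5 kept the STAT2 call (without time 0 females 6 or 20, time 0 male 24, control female 18 or control male 16). The values over the 22 fits ran between 0.54 and 0.76, with adjusted p between 0.0274 and 0.105. Conversely, single arrays decided calls of other members. Without control female 18, IRF9 passed (0.67, adjusted p = 0.0417). Without control male 16, GBP1-a (0.77, adjusted p = 0.0419), GBP1-b (0.57, adjusted p = 0.0228) and GBP2 (0.63, adjusted p = 0.0360) passed. GBP1-b also passed without time 0 female 17 (0.57).

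The same test of the change in the sex difference called 7.34% of all probe sets, 3.89% as positive. Antiviral effectors were the list with most calls in it. Of 19, 10 passed and all 10 were positive (median 1.32, against -0.01 over all probe sets), among them OAS1 (4.40), whose product activates an RNA-degrading enzyme, IFIT2 (2.40), which restricts translation of viral RNA, and the antiviral GTPase MX1 (2.03). Of 16 interferon-gamma-type targets 6 passed, all positive, led by CASP1 (2.23), the inflammasome protease, and FCGR1A (2.08), the high-affinity IgG receptor. Of 22 other signalling genes, JAK2, a kinase of the interferon-gamma receptor, was positive (0.65) and IRF8 negative (-0.61), a count near the share of all probe sets. At 9 months, XAF1 (-1.17) and MX1 (-1.04) were the antiviral effectors that passed as lower in females than in males, as did 2.94% of all probe sets, and at time 0 none of the 19 passed, with 18 positive differences (median 0.42). Of the interferon-gamma-type targets, CASP1 (-1.30), FCGR1A (-0.96) and the complement inhibitor SERPING1 (-0.81) passed as lower in females at 9 months. At time 0, SERPING1 (0.67), PSMB10 (0.49) and the tryptophanyl-tRNA synthetase WARS (0.45) passed as higher in females. There 1.07% of all probe sets passed in either direction. ATL3 was lower (-0.38) and IRF8 higher (0.44) in females at 9 months. All these sex differences of 9 months pool the 3 diets. On the control diet the antiviral list mean was 7.63 to 9.02 in females and 7.96 to 8.16 in males. It was 7.79 to 7.83 and 8.80 to 8.97 with high fat, and 7.89 to 7.97 and 8.83 to 9.45 with resveratrol. The high-fat effect in females minus in males was negative for 18 of 19 antiviral effectors (median -1.17), and none passed.

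Cell markers also differed between the sexes at 9 months. Beside the 2.94% of all probe sets called lower in females, 4 of 11 monocyte and dendritic cell markers were called lower (10 of 11 differences negative), as were 2 of 6 granulocyte markers (6 of 6 negative) and 3 of 4 erythroid markers (3 of 4 negative). Of 13 T cell markers, 2 were called higher (12 of 13 positive), beside 6.01% of all probe sets called in either direction. Of 3 B cell markers 1 was called higher, and of 6 NK and cytotoxic markers 1 was called lower. No platelet marker was called (6 of 7 negative). In the high-fat plus resveratrol group the monocyte list mean was 9.32 to 9.44 in females and 10.1 in both males. In the high-fat group it was 9.42 to 9.47 in females and 9.65 to 9.85 in males. On the control diet at 9 months it was 9.90 to 10.01 in females and 10.03 to 10.30 in males. The part of these differences in the members' values was not tested.

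**Figure D3:**
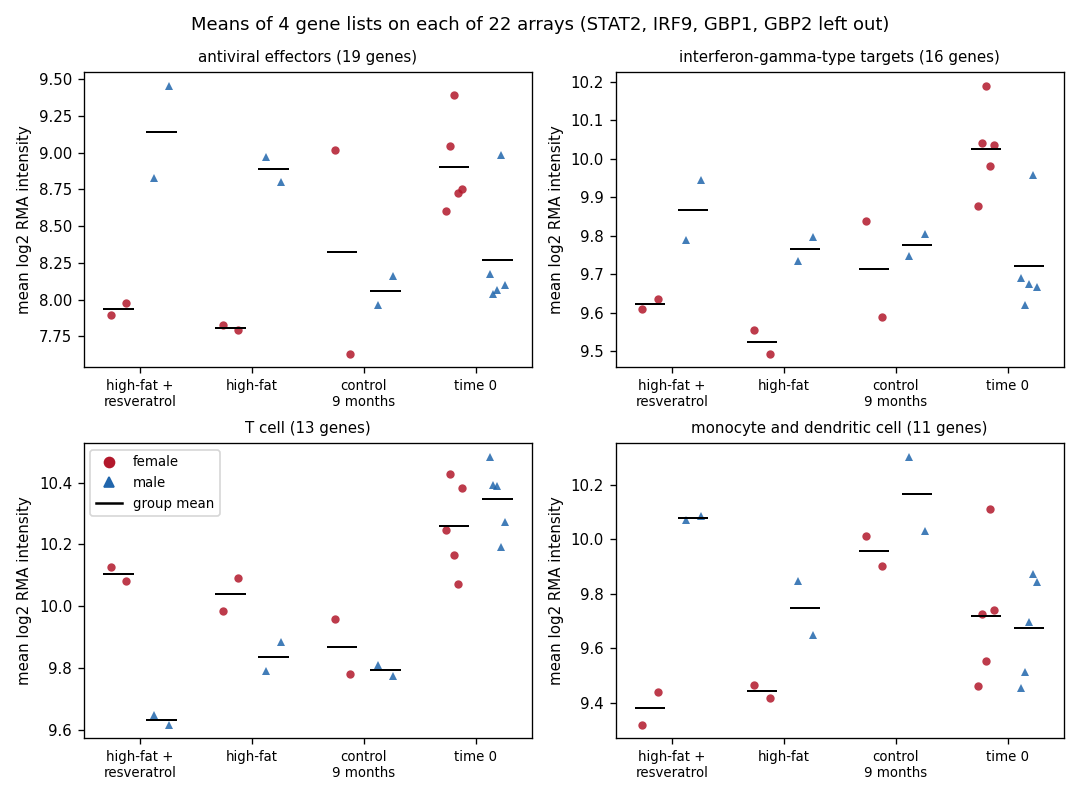
Mean log2 RMA intensity (y axis) of 4 gene lists on each of 22 arrays, by condition (x axis), without the 4 members. Circles are females, triangles are males and bars are means. The antiviral mean is 7.79 to 7.83 in high-fat females and 8.80 to 8.97 in high-fat males. On the control diet at 9 months it is 7.63 to 9.02 in females and 7.96 to 8.16 in males. At time 0 it is 8.60 to 9.39 in females and 8.04 to 8.98 in males.

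The diet comparisons addressed the effect of fat and the effect of resveratrol on top of fat. No member probe set passed in any of them. The 3 comparisons share arrays with each other, so their values are given side by side without a comparison among them. Over all probe sets the adjusted threshold was passed by 0% in each, and the smallest adjusted p values were 0.0996 for high-fat minus control, 0.728 for resveratrol minus high-fat and 1.00 for resveratrol minus control. Unadjusted p values under 0.05 were found for 9.06%, 6.63% and 3.85% of all probe sets in these 3 comparisons, and for 0 of the 6 members in each. For high-fat minus control, 10 of 11 monocyte and dendritic cell markers had negative differences (median -0.47), and none passed. Other lists went the other way, also with no call. Positive differences were found for 11 of 13 T cell, 3 of 3 B cell and 6 of 6 NK and cytotoxic markers. The same held for 4 of 4 erythroid and 5 of 7 platelet markers. Granulocyte markers were evenly split (3 of 6 positive). The part of these markers in the members' diet values was not tested.

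GBP1-a was 10.16, 10.27, 10.25 and 10.61 with high fat plus resveratrol (females 21 and 22, males 4 and 5), and 10.37, 10.45, 10.38 and 10.48 with high fat alone (females 27 and 30, males 23 and 26). The 4 high-fat arrays lay close together, within the range of the control arrays. High-fat minus control was 0.30 (95% interval -0.17 to 0.76), and resveratrol minus high-fat was -0.10 (-0.56 to 0.37).

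GBP2 was 8.26, 8.14, 8.33 and 8.62 with resveratrol and 8.42, 8.44, 8.26 and 8.41 with high fat alone. The ranges overlapped, and male 23 was the lowest high-fat array. High-fat minus control was 0.21 (95% interval -0.18 to 0.60), and resveratrol minus high-fat was -0.05 (-0.44 to 0.34).

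IRF9 was 7.65, 7.84, 7.97 and 7.94 with resveratrol and 7.49, 7.38, 7.65 and 7.92 with high fat alone. The 2 high-fat females were the lowest of these 8 arrays, and the groups overlapped through high-fat male 26. Resveratrol minus high-fat was 0.24 (95% interval -0.16 to 0.63), and high-fat minus control was -0.14 (-0.53 to 0.26).

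STAT2 was 7.86, 7.70, 7.90 and 8.10 with resveratrol and 7.88, 7.57, 7.89 and 7.99 with high fat alone, which overlapped almost fully. Resveratrol minus high-fat was 0.06 (95% interval -0.35 to 0.47), and high-fat minus control was -0.10 (-0.51 to 0.31).

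GBP1-b was 8.08, 8.32, 8.64 and 8.54 with resveratrol and 8.14, 8.23, 8.11 and 8.24 with high fat alone. Both resveratrol males and female 22 were above all high-fat arrays, and female 21 was below them. Resveratrol minus high-fat was 0.21 (95% interval -0.13 to 0.56), and in females minus in males this effect was -0.41 (95% interval -0.98 to 0.15, adjusted p = 0.845). Resveratrol minus control gave its largest member values for GBP1-c (0.33, 95% interval -0.17 to 0.83) and GBP1-b (0.29, -0.05 to 0.63).

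The order of the 4 conditions by mean was the same at its top for every member: time 0 was highest. For GBP1-a the means were 10.33 ± 0.20 with resveratrol, 10.42 ± 0.05 with high fat, 10.13 ± 0.41 on the control diet at 9 months and 11.20 ± 0.41 at time 0 (SD, n = 4, 4, 4 and 10). For IRF9 they were 7.85 ± 0.14, 7.61 ± 0.23, 7.75 ± 0.33 and 8.33 ± 0.30. Among the diets of 9 months, neighbours in the order differed by less than their larger SD for GBP1-a and IRF9, while time 0 stood above the nearest diet by more than the larger SD. For STAT2 the means were 7.89 ± 0.16, 7.83 ± 0.18, 7.94 ± 0.27 and 8.25 ± 0.36, and time 0 stood above the control diet by less than its own SD. The diets by sex gave no member call either, and those contrasts called 1 (0.0058%) and 2 (0.0116%) of all probe sets.

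No gene of the 4 pathway lists passed in a diet comparison. The 3 genes with the smallest p for high-fat minus control were IL10RB (-0.29, adjusted p = 0.326), the receptor kinase TYK2 (-0.31, adjusted p = 0.379) and IFNAR1 (-0.29, adjusted p = 0.442), a chain of the type I interferon receptor. For resveratrol minus high-fat they were IL10RB (0.26), IRF3 (0.28) and ZC3HAV1 (0.93), a binder of viral RNA, with adjusted p of 0.728, 0.728 and 0.736. For resveratrol minus control they were IFNAR1 (-0.31), ZC3HAV1 (0.83) and IRF2 (-0.21), each with an adjusted p of 1.00. For the high-fat effect in females minus in males they were the type I interferon IFNA1 (0.59), the signalling inhibitor SOCS1 (1.14) and MX2 (-2.19), each with an adjusted p of 0.397. For the resveratrol effect in females minus in males they were ATL3 (-0.65), IFNAR2 (0.50), the other chain of the type I receptor, and CIITA (0.47), the activator of MHC class II genes, with adjusted p between 0.840 and 0.842.

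How the members varied together was examined within each time, since every pig appears once there. Of 20 relations among the members and with the antiviral list mean, GBP1 (as GBP1-a) and GBP2 gave the highest Pearson's r at both times, though not the highest rho at time 0. Across the 12 arrays of 9 months, Pearson's r was 0.915 (permutation p = 2.00e-05, adjusted p = 0.000400) and Spearman's rho 0.853 (adjusted p = 0.0120). Without the 2 arrays farthest from the GBP1 median, control male 16 and control female 8, r was 0.850. Within the 7 arrays of the dimmer spike-in set r was 0.894. Across the 10 arrays of time 0, r was 0.950 (permutation p = 0.000350, adjusted p = 0.00233) and rho 0.697 (adjusted p = 0.0686), and r without females 10 and 8 was 0.753. The 3 GBP1 probe sets correlated with each other at r between 0.857 and 0.953 over all 22 arrays, and GBP1-a with GBP2 at 0.971. No probe sequences were examined, so whether probes of 1 of these genes also bind RNA of the other was not tested.

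STAT2 and IRF9 gave r = 0.505 at 9 months (permutation, adjusted p = 0.126; rho 0.469) and r = 0.858 at time 0 (adjusted p = 0.00460; rho 0.782, adjusted p = 0.0395). Without female 10 and male 12, r at time 0 was 0.651 (exact permutation p = 0.0800 over 8 arrays), so this relation did not pass without them. Leaving out the arrays farthest from the median also narrows the range and lowers the number of arrays. This check cannot tell the part of those arrays from that loss. IRF9 and GBP1 gave r = 0.00481 at 9 months (permutation, adjusted p = 0.989) and r = 0.835 at time 0 (adjusted p = 0.00982), where r was 0.629 without females 10 and 20. For IRF9 and GBP2 the values were -0.185 (adjusted p = 0.613) and 0.834 (adjusted p = 0.00982; 0.544 without the same 2 females). STAT2 with GBP1 gave 0.544 (adjusted p = 0.0947) and 0.826 (adjusted p = 0.0115; 0.469 without female 10 and male 12). STAT2 with GBP2 gave 0.485 (adjusted p = 0.128) and 0.803 (adjusted p = 0.0160; 0.450 without them). By rank these 4 pairs gave rho between -0.126 and 0.545 at 9 months (adjusted p between 0.119 and 0.702) and between 0.552 and 0.709 at time 0 (adjusted p between 0.0644 and 0.143), so none passed. Within the dimmer spike-in sets, r of IRF9 and GBP1 was 0.265 at 9 months (7 arrays) and 0.729 at time 0 (8 arrays), and that of STAT2 and IRF9 0.629 and 0.728. These values pool groups of condition and sex. For deviations from the group means, r at 9 months was 0.303 for STAT2 and IRF9, 0.777 for STAT2 and GBP1, 0.726 for STAT2 and GBP2, 0.0042 for IRF9 and GBP1, -0.271 for IRF9 and GBP2 and 0.925 for GBP1 and GBP2. At time 0 the 6 member pairs lay between 0.608 and 0.906. Whether these relations differ between the times was not tested.

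STAT2 was the member that followed the antiviral list mean most closely at time 0 (r = 0.927, permutation, adjusted p = 0.00120; rho 0.891), and r without female 10 and male 12 was 0.897. At 9 months the value was 0.659 (adjusted p = 0.0340; rho 0.783), and 0.836 without control male 25 and high-fat female 30. IRF9 gave 0.659 at 9 months (permutation, adjusted p = 0.0340; rho 0.699, adjusted p = 0.0415), and 0.501 without control female 8 and high-fat female 30 (permutation p = 0.134 over 10 arrays), so this relation did not pass without those arrays. At time 0 it gave 0.886 (adjusted p = 0.00255; rho 0.867), and 0.854 without females 10 and 20. GBP1 gave 0.495 at 9 months (permutation, adjusted p = 0.128; rho 0.448) and 0.802 at time 0 (adjusted p = 0.00977; rho 0.770; 0.536 without females 10 and 8). GBP2 gave 0.383 at 9 months (permutation, adjusted p = 0.249; rho 0.273) and 0.725 at time 0 (adjusted p = 0.0217; rho 0.564; 0.283 without females 10 and 8). Without those 2 females neither time 0 relation of the guanylate-binding proteins passed in Pearson's r (exact permutation p = 0.182 for GBP1 and 0.456 for GBP2 over 8 arrays, with a narrower range). By rank over all 10 arrays GBP1 passed (adjusted p = 0.0395) and GBP2 did not (adjusted p = 0.137). Within the dimmer spike-in set of 9 months (7 arrays) r with the antiviral mean was 0.923 for STAT2, 0.489 for IRF9, 0.841 for GBP1 and 0.773 for GBP2, and within that of time 0 (8 arrays) it was 0.901, 0.832, 0.710 and 0.526. For deviations from the group means the values were 0.724, 0.628, 0.612 and 0.347 at 9 months and 0.854, 0.827, 0.628 and 0.462 at time 0, in the same order of members.

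**Figure D4:**
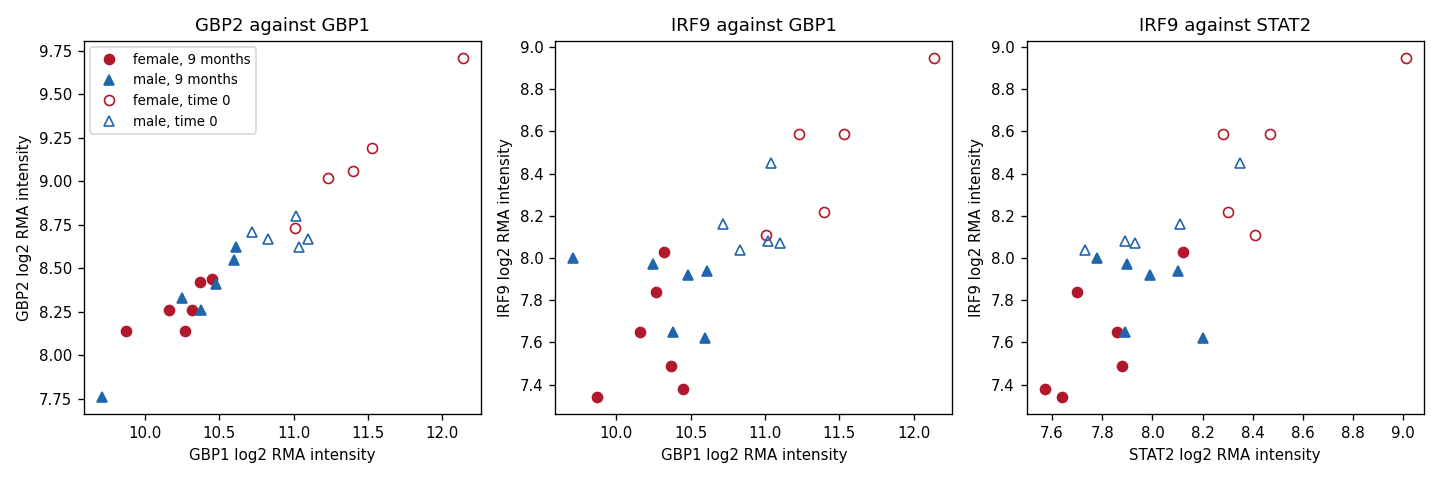
Log2 RMA intensity of pairs of members on each of 22 arrays: GBP2 against GBP1-a, IRF9 against GBP1-a, and IRF9 against STAT2. Filled symbols are arrays of 9 months and open symbols those of time 0, with circles for females and triangles for males. GBP1-a and GBP2 run together at both times (r = 0.915 at 9 months and 0.950 at time 0). IRF9 and GBP1-a give r = 0.00481 at 9 months and 0.835 at time 0.

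Genes with the most similar pattern were ranked by Pearson's r over all 22 arrays among 5905 other genes. This is a description of arrays that share the split between the times. GBP2 ranked first for GBP1, and GBP1 first for GBP2 (r = 0.971), and r of deviations from the means of the 8 groups of condition and sex was 0.914. The next genes for GBP1 were AIFM1 (0.950), LONP2 (0.948), COPS5 (0.945) and ABHD10 (0.944), and for GBP2 PAAF1 (0.942), the proteasome activator subunit PSME2 (0.934), GATC (0.930) and MRPS17 (0.928). For STAT2 they were ARV1 (0.928), TRAFD1 (0.897), LOC733579 (0.883), LAP3 (0.882) and AP3B1 (0.880). For IRF9 they were TRAPPC3 (0.913), TM9SF1 (0.901), SHISA5 (0.889), LOC733579 (0.887) and SNX1 (0.884). IRF9 was number 62 for STAT2 and STAT2 number 75 for IRF9 (r = 0.814). Over the 22 arrays each was the nearest of the other members to the other, but STAT2 had similar r with GBP1 (0.808) and GBP2 (0.803). For deviations from the 8 group means, STAT2 was nearer to GBP1 (0.707) and GBP2 (0.649) than to IRF9 (0.606). IRF9 was still nearest to STAT2 there, with 0.443 for GBP1 and 0.326 for GBP2.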

How the data were processed

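RNA of mononuclear cells from 22 blood samples was hybridised to Affymetrix porcine arrays. Each deposited value is a linear RMA intensity of 1 probe set on 1 array, with GCOS, RMA and Affymetrix Expression Console 1.1 named in the submitters' processing notes. The log2 of each deposited intensity was taken after a floor of 1. Of 24123 probe sets, 124 controls were set aside, and 17240 with log2 above 5 in at least 2 arrays were tested. Symbols came from the array's annotation. Differences were tested two-sided with limma 3.58.1 in R 4.3.3 (statmod 1.5.0 for blocks), adjusted by Benjamini-Hochberg at 0.05. For diets and times the model held condition plus sex, and for the sexes 8 group means, both over all arrays. Correlations used 100000 permutations (exact for 8 arrays) in scipy 1.17.1.

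Lists were used with 1 probe set per gene, the brightest. List genes were named if they passed, or else the 3 with the smallest p, and for likeness the 5 highest r. The members, lists and tests were chosen with earlier results of these data known. Samples were grouped by their labels, which number the pigs: pigs 8 and 25 were measured at both times. The paired arrays' deviations from their group means correlated at -0.056 and 0.199. Nothing says that samples of a group were handled separately beyond being different pigs, and the number of arrays limits the precision. Procedures were tested on simulated data. The alternatives changed the filter, scale, normalization, variance model, array weights, sex term, pig block and spike-in set, or left out 1 array at a time.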

Additional observations from a re-analysis of the deposited data

Results flagged for a closer look

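An array was singled out where its distance to the nearest other array of its group was large against the group's range (Dixon's criterion at 95%). Chance alone gives about 1 in 20 for independent groups. The groups here share arrays and genes, so their count cannot be set against that rate. Of 36 groups of member values examined, 5 met the criterion. Of these, 3 concern female 10 at time 0, which was the highest array for STAT2 among the time 0 females (9.01, next 8.47), and the highest of all time 0 arrays for GBP1-c (11.21, next 10.46) and GBP2 (9.71, next 9.19). This pig belongs to the brighter spike-in set of time 0 (9.15). Among the time 0 males, male 24 was high for IRF9 (8.45, next 8.16), and its antiviral list mean (8.98) was the highest among the males too. In the high-fat group, male 23 was low for GBP2 (8.26, next 8.41), in a group whose whole range was 0.19.

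The sex difference of STAT2 differed between the times by 0.67 (limma, adjusted p = 0.0490), being 0.49 at time 0 and -0.18 at 9 months. At time 0 the brighter spike-in set held 2 females and no male, and the dimmer set 3 females and all 5 males. With the sets as a block the value was 0.60 (limma, adjusted p = 0.122). The part of the spike-in level in this result was not tested beyond this block.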

How the results depend on the processing

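Settings beyond those reported were tried 1 at a time. For the change with time on the control diet, the 10 other settings kept every member's direction and call, with GBP1-a between -1.09 and -0.76 and IRF9 between -0.60 and -0.47, and leaving out 1 array gave 4867 to 6087 calls over all probe sets. With pig as a replicate block (consensus correlation -0.018 in the fit of 8 group means), STAT2's change in sex difference gave 0.67 (adjusted p = 0.0501), and no other member call changed. Array weights called GBP1-b in the change of the sex difference (0.50, adjusted p = 0.0461). Quantile normalization turned the correlation of IRF9 and GBP1 at 9 months to -0.062, and those of STAT2 and IRF9 with the antiviral mean there no longer passed (0.62 each, adjusted p = 0.0542).

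Counts over all probe sets moved more. The sex comparison at time 0 called 25 probe sets with the spike-in sets as a block, 28 without the brighter set, and 38 to 395 when 1 array was left out. Leaving out 1 array gave 319 to 1441 for sex at 9 months and 692 to 1714 for the change in the sex difference, for which the spike-in block gave 597. High-fat minus control called 68 with array weights, 18 with 8 group means, 25 within the dimmer spike-in set of 9 months and 0 to 18 with 1 array left out. Resveratrol minus high-fat called 1 with 8 group means and 29 within the dimmer set. That set holds 1 high-fat array, male 23, which is assumed to vary like the other arrays. Resveratrol minus control called 1 with 8 group means. The stricter filter left 0 for both diet-by-sex contrasts, and the spike-in block 1 for resveratrol. With 1 array left out these contrasts gave 1 to 154 for high fat and 1 to 54 for resveratrol.

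Signs of uncalled diet differences turned, above all within the brighter spike-in set of 9 months, which has 1 control array (male 25) and 1 resveratrol array (female 21), so that resveratrol minus control is there 1 female against 1 male. In this set, high-fat minus control was 0.30 for IRF9, -0.12 for GBP1-a, -0.11 for GBP1-b, -0.13 for GBP1-c and -0.14 for GBP2. Resveratrol minus high-fat was -0.11 for GBP1-b and -0.056 for GBP1-c, and resveratrol minus control was -0.36 for GBP1-a, -0.22 for GBP1-b, -0.18 for GBP1-c and -0.31 for GBP2. Within the dimmer set, GBP2 gave 0.089 for resveratrol minus high-fat and STAT2 0.023 for resveratrol minus control. Array weights gave -0.046 (GBP1-b, high-fat minus control), -0.00039 (GBP1-c, resveratrol minus high-fat) and -0.11 (GBP1-a and GBP2, resveratrol minus control). With the spike-in block, resveratrol minus high-fat was 0.040 for GBP2, and the high-fat effect in females minus in males was -0.26 for GBP1-a, -0.15 for GBP1-c and -0.31 for GBP2. The cause of these shifts was not tested.

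Leaving out 1 array also turned the sign of some differences that did not pass. For sex at 9 months the values ran between -0.25 and 0.050 (GBP1-a), -0.19 and 0.0075 (GBP1-b), -0.26 and 0.013 (GBP1-c) and -0.18 and 0.086 (GBP2). For high-fat minus control they ran between -0.23 and 0.013 (STAT2) and -0.029 and 0.18 (GBP1-b). For resveratrol minus high-fat they ran between -0.053 and 0.15 (STAT2) and -0.18 and 0.056 (GBP2), and for resveratrol minus control between -0.17 and 0.074 (STAT2) and -0.049 and 0.20 (IRF9). For the high-fat effect in females minus in males they ran between -0.34 and 0.14 (STAT2), -0.57 and 0.12 (IRF9), -0.41 and 0.48 (GBP1-a), -0.38 and 0.20 (GBP1-b), -0.25 and 0.58 (GBP1-c) and -0.35 and 0.45 (GBP2). For the resveratrol effect in females minus in males they ran between -0.15 and 0.15 (STAT2) and -0.00095 and 0.27 (IRF9).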
